A study of Homo sapiens with 12 samples.

Results

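The genes described here are the 10 named HLA class II presentation genes: HLA-DRA, HLA-DRB1, HLA-DPA1, HLA-DPB1, HLA-DQA1 and HLA-DQB1, which code for the chains of the peptide receptors, HLA-DMA and HLA-DMB, which code for the peptide exchange factor, CD74, the invariant chain, and CIITA, the class II transactivator. They were chosen by the gene symbol that the scanner tables give each probe, which picked 13 of the 48800 probes and 10 of the 25158 symbols. The samples were 12 Illumina HumanHT-12 v3 arrays of cells labelled Reh, a human B-cell precursor acute lymphoblastic leukemia line, with 3 arrays in each of 4 groups. The groups were untreated cells without stroma, cells under Ara-C alone, cells under Ara-C with HS stromal cells, and cells under Ara-C with HS5 stromal cells. Exposure to Ara-C (cytarabine, a nucleoside analogue that blocks DNA synthesis) lasted 48 h, at a dose not given in the labels. HS5, written HS-5 in the design text, is a stromal line from human marrow, and the labels do not describe HS. No group had stroma without Ara-C, and the labels do not say how leukemia cells were separated from stroma before RNA was prepared. The triplicates are called independent in the design text.

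Class II molecules show peptides from endosomes to CD4+ T cells. Each is a pair of an alpha and a beta chain that leaves the endoplasmic reticulum with the invariant chain CD74 in its groove, and the last piece of CD74, called CLIP, is then exchanged for a peptide with the help of HLA-DM. CIITA does not bind DNA itself but joins the factors RFX, CREB and NF-Y that sit on the X and Y boxes of class II, DM and CD74 promoters. B cells, dendritic cells and activated macrophages make these genes, and other cells can be induced to do so by interferon gamma.

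The windows before annotated starts of the 5 tested members for which they were found are shown, since changes of these genes are set side by side here. They are the 250 bases before the annotated start, from RefSeq on GRCh38.p14, all on the minus strand, at chr6:32953098-32953347 for HLA-DMA, chr6:32941029-32941278 for HLA-DMB, chr6:32589849-32590098 for HLA-DRB1, chr6:33073650-33073899 and chr6:33080749-33080998 for the first and second window of HLA-DPA1, and chr5:150412911-150413160 for CD74. Capitals mark every match, on either strand, to ACNGATG, letters from the X box, and to ATTGG, which reads CCAAT on the other strand, letters from the Y box. The reference haplotype is shown, not the alleles of these cells.
HLA-DMA: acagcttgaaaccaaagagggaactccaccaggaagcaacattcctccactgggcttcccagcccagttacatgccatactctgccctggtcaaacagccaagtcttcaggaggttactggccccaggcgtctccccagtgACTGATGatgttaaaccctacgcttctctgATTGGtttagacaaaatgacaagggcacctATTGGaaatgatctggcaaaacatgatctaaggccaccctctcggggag
HLA-DMB: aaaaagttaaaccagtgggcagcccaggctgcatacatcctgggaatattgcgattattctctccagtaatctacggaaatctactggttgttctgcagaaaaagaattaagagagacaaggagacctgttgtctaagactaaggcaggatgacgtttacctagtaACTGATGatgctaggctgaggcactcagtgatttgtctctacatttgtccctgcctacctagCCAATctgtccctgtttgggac
HLA-DRB1: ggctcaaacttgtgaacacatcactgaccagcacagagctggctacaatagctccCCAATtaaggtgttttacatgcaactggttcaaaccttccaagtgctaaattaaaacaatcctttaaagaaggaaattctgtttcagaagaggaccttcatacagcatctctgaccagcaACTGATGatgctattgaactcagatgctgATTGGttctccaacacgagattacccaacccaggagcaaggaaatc
HLA-DPA1 first window: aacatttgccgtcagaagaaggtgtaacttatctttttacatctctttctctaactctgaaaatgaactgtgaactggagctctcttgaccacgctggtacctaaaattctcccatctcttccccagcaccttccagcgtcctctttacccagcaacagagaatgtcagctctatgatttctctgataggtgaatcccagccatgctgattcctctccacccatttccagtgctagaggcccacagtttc
HLA-DPA1 second window: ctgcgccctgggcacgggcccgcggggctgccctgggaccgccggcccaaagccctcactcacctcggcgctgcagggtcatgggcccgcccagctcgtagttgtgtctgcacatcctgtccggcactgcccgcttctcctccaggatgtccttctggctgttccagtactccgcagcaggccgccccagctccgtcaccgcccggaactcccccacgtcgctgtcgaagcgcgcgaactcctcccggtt
CD74: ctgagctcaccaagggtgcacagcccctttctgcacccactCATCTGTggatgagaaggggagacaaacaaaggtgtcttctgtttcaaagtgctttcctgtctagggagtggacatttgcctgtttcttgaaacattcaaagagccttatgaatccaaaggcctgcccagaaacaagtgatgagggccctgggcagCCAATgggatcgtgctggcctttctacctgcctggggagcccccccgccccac
The X box letters begin 109, 84 and 75 bases before the start of HLA-DMA, HLA-DMB and HLA-DRB1, and in CD74 they occur at 209 bases on the opposite strand. In HLA-DMA and HLA-DRB1 the Y box letters follow 23 and 22 bases after their end, and no match overlaps another in the windows shown. The windows of HLA-DPA1 hold neither set of letters. The second of them lies past the annotated start of HLA-DPB1, whose own window on the plus strand is chr6:33075740-33075989. Whether it acts as a promoter was not tested. Of 9 windows found for 8 members, 5 held the X box letters and 7 the Y box letters, against 6.35% and 32% of all 35114 windows of this length. X box letters followed by Y box letters at 15 to 35 bases were found in 3 of the 9, those of HLA-DRB1, HLA-DMA and HLA-DQB1, against 0.142% of all windows. The letters were chosen with these windows in view, so the shares describe them and test nothing, and a window without a match is silent on whether a factor binds there. No window for HLA-DRA or CIITA was used.

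Of the 48800 probes, 13064 to 14898 were detected on an array, meaning a detection p under 0.01 against the negative controls of that array, and 11183 genes passed the filter on detection and were tested. The 12 arrays shared 1 chip with the 3 arrays of a group side by side, and chip position cannot be told apart from group. Of 15 markers of B-lineage precursors with a probe, 9 were tested, and CD79A, CD79B, IGLL1, DNTT, RAG1 and CD24 were detected on all 12 arrays, while PAX5, CD22, BLNK, VPREB1 and TCL1A were detected on none. MPO, of granulocyte precursors, was detected on all 12, at a mean normalized log2 intensity of 15.32 ± 0.13 in untreated cells (SD, n = 3). Part of the defining markers of the labelled line were thus absent from the detected probes, and the cells are known here only by their label.

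Of the 10 members, 5 (HLA-DRA, HLA-DPA1, HLA-DMA, HLA-DMB and CD74) were detected on all 12 arrays and HLA-DRB1 on 6 of 12. The other 4, HLA-DPB1, HLA-DQA1, HLA-DQB1 and CIITA, were detected on none and were not tested. Levels below are normalized log2 intensities of the probe that stands for the gene, and they can be compared between arrays but not between genes. In bulk samples fewer cells of a type and less RNA per cell cannot be told apart. The levels of the 6 tested members fell into several patterns. HLA-DRA, HLA-DPA1 and CD74 were highest with HS, HLA-DMA was high in all 3 Ara-C groups, HLA-DMB rose with Ara-C and again with HS, and HLA-DRB1 was detected only in the groups with Ara-C alone and Ara-C with HS5.

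**Figure D1:**
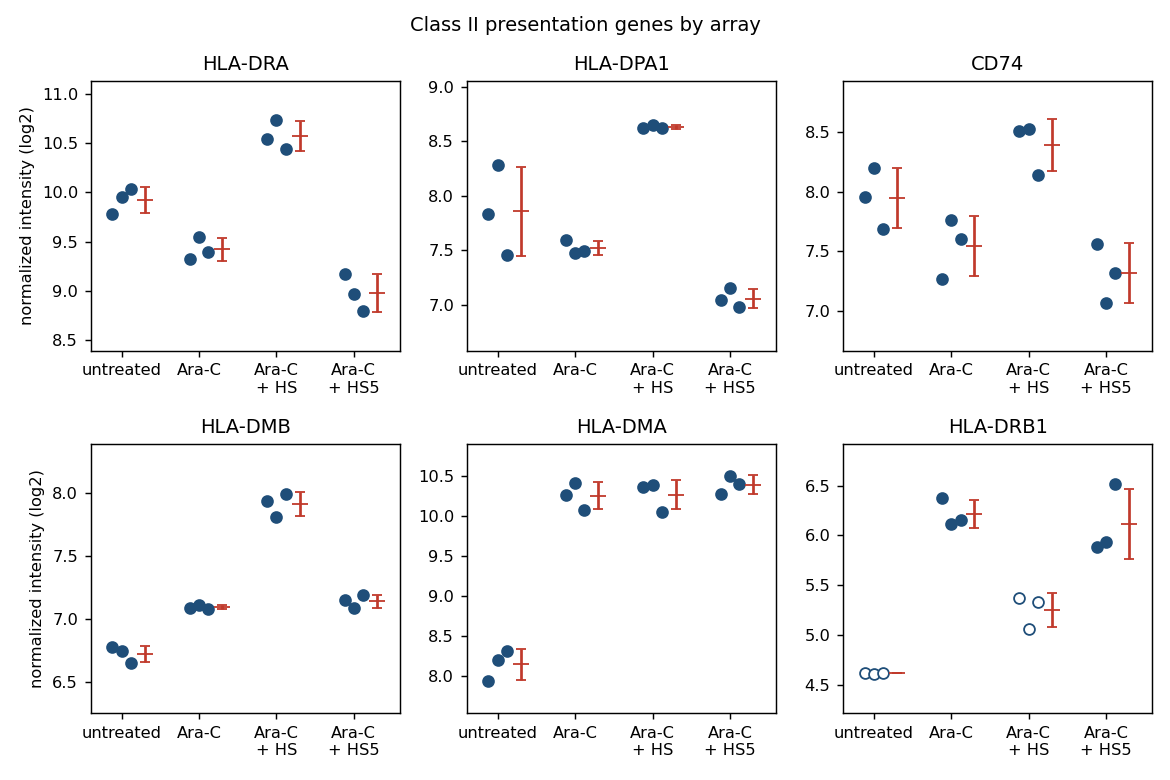
Normalized log2 intensity of the 6 tested members (vertical axes, 1 panel per gene with its own range) on each of the 3 arrays of the 4 groups (horizontal axes). Filled points were detected, open points were not, and red bars show the mean and SD of the group. HLA-DRA, HLA-DPA1, CD74 and HLA-DMB are highest with HS, while HLA-DMA lies between 10.06 and 10.51 on all 9 Ara-C arrays.

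HLA-DRA codes for the alpha chain of HLA-DR, which pairs with each of the DRB beta chains. Its probe (ILMN_2157441) read 9.78, 9.95 and 10.04 on the untreated arrays and 9.32, 9.55 and 9.39 under Ara-C. With HS it read 10.55, 10.73 and 10.44, and with HS5 9.17, 8.97 and 8.79. The arrays of no 2 groups overlapped, in the order HS, untreated, Ara-C alone, HS5. HLA-DRA rose 2.22-fold when HS was added (a log2 change of 1.15, SE 0.12, adjusted p = 9.26e-06) and fell 1.41-fold with Ara-C alone (-0.50 on the log2 scale, SE 0.12, adjusted p = 0.00342). With HS5 added the change was -0.44 (SE 0.12, 95% interval -0.70 to -0.19, unadjusted p = 0.00258, adjusted p = 0.112), so the neighbours Ara-C alone and HS5 did not pass the test. A second probe for HLA-DRA (ILMN_1689655), in the fit over all kept probes, gave 1.24 for HS (SE 0.10), -0.29 for Ara-C (SE 0.10, adjusted p = 0.0264) and -0.48 for HS5 (SE 0.10, adjusted p = 0.051). Both probes put the groups in the same order.

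HLA-DPA1 codes for the alpha chain of HLA-DP. It read 7.83, 8.28 and 7.46 on untreated arrays, 7.59, 7.48 and 7.49 under Ara-C, 8.62, 8.65 and 8.62 with HS, and 7.04, 7.15 and 6.98 with HS5. The HS arrays lay above all others and the HS5 arrays below all others, while the untreated arrays spread widely and overlapped those under Ara-C. The rise with HS was 2.16-fold (a log2 change of 1.11, SE 0.15, adjusted p = 9.37e-05). The differences of -0.34 for Ara-C (SE 0.15, 95% interval -0.67 to -0.00, adjusted p = 0.0833) and -0.46 for HS5 (SE 0.15, 95% interval -0.80 to -0.13, adjusted p = 0.203) did not pass. The value for Ara-C rested on single untreated arrays: it was -0.12 without replicate 2 (adjusted p = 0.407) and -0.53, which passed, without replicate 3 (adjusted p = 0.00402). Against untreated cells, HLA-DPA1 was 1.71-fold higher with Ara-C and HS (0.78, SE 0.15, adjusted p = 0.00125) and 1.74-fold lower with Ara-C and HS5 (-0.80, SE 0.15, adjusted p = 0.000634).

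CD74, the invariant chain, also serves at the cell surface as a receptor for the cytokine MIF. Its probe (ILMN_1736567) read 7.95, 8.20 and 7.69 on untreated arrays, 7.27, 7.77 and 7.61 under Ara-C, 8.51, 8.53 and 8.14 with HS, and 7.57, 7.07 and 7.32 with HS5. The HS arrays lay above those of Ara-C alone and of HS5, and 1 of them overlapped the untreated arrays. CD74 rose 1.79-fold with HS (0.84, SE 0.17, adjusted p = 0.00167). It did not pass for Ara-C alone (-0.40, SE 0.17, 95% interval -0.77 to -0.03, adjusted p = 0.0671), for HS5 added (-0.23, SE 0.17, 95% interval -0.60 to 0.14, adjusted p = 0.615), or for Ara-C with HS against untreated cells (0.44, SE 0.17, 95% interval 0.07 to 0.81, adjusted p = 0.0505). A second probe (ILMN_2379644), detected on 11 arrays, gave 1.09 for HS (SE 0.15, adjusted p = 8.71e-05) and passed for Ara-C alone too, at -0.51 (SE 0.15, adjusted p = 0.0104), and for Ara-C with HS against untreated cells, at 0.58 (SE 0.15, adjusted p = 0.00647). With single arrays left out, the first probe ran from -0.53 to -0.26 for Ara-C alone and passed without untreated replicate 3 (adjusted p = 0.0306) or Ara-C replicate 2 (adjusted p = 0.0415). The third CD74 probe was detected on no array.

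HLA-DMA and HLA-DMB code for the alpha and beta chain of the peptide exchange factor HLA-DM. HLA-DMA read 7.93, 8.19 and 8.30 on untreated arrays and 10.26, 10.42 and 10.08 under Ara-C. It read 10.36, 10.39 and 10.06 with HS, and 10.27, 10.51 and 10.40 with HS5. All 9 Ara-C arrays lay above all untreated ones, and the 3 Ara-C groups overlapped each other. HLA-DMA rose 4.32-fold with Ara-C (a log2 change of 2.11, SE 0.13, adjusted p = 3.60e-08), and 6.85% of the genes tested were called at least 2-fold higher there. Stroma added 0.02 with HS (SE 0.13, 95% interval -0.26 to 0.30, adjusted p = 0.937) and 0.14 with HS5 (SE 0.13, 95% interval -0.14 to 0.42, adjusted p = 0.691). Neither passed.

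HLA-DMB read 6.78, 6.74 and 6.65 on untreated arrays, 7.09, 7.11 and 7.08 under Ara-C, 7.94, 7.81 and 7.99 with HS, and 7.15, 7.08 and 7.19 with HS5. Untreated arrays were lowest and HS arrays highest without overlap, and the Ara-C and HS5 arrays overlapped between them. Its rise with Ara-C was 1.29-fold (0.37, SE 0.08, adjusted p = 0.00217), and HS brought a further 1.76-fold (0.82, SE 0.08, adjusted p = 7.54e-06). HS5 gave 0.05 (SE 0.08, 95% interval -0.13 to 0.23, adjusted p = 0.855). Both DM chains thus rose with Ara-C, with fitted changes of 2.11 and 0.37, and of the pair HLA-DMB passed for HS.

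HLA-DRB1 codes for the common beta chain of HLA-DR. Its probe was detected on all 3 Ara-C arrays, at 6.37, 6.12 and 6.15, and on all 3 HS5 arrays, at 5.89, 5.94 and 6.52. It was not detected on the untreated arrays, at 4.62 on each of the 3, or on the HS arrays, at 5.37, 5.06 and 5.34, and it passed the filter only through the groups where it was high. HLA-DRB1 rose at least 1.37-fold with Ara-C (adjusted p = 1.84e-06) and fell at least 1.53-fold with HS (adjusted p = 0.000244), both bounds set against the lowest detected level of the arrays. HS5 gave -0.10 (SE 0.15, 95% interval -0.42 to 0.22, adjusted p = 0.831). Because of that filter these directions are a description and support nothing. The DRB genes are closely related, and whether this probe reads only HLA-DRB1 was not tested.

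**Figure D2:**
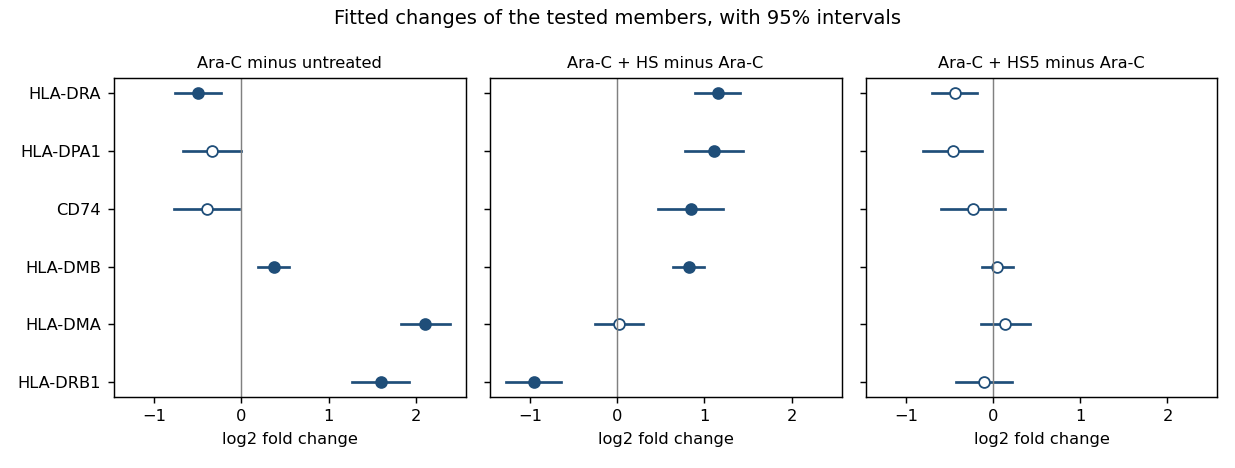
Log2 fold change of the 6 tested members (horizontal axes) with its 95% interval in 3 comparisons (panels), filled where the adjusted p was under 0.05. Values for HLA-DRB1 are fitted values against a group that was not detected in the first 2 panels. HLA-DRA, HLA-DPA1, CD74 and HLA-DMB rose with HS, HLA-DMA has the highest value with Ara-C, at 2.11, and no member passed with HS5.

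The 4 members that were not tested had raw signals between 53.7 and 84.6 on all arrays. CIITA, the regulator on which expression of these genes depends, had raw signals of 53.7 to 76.9 and a lowest detection p of 0.0369. The lowest detection p was 0.0474 for HLA-DPB1, the partner chain of HLA-DPA1, 0.126 for HLA-DQA1 and 0.0329 for HLA-DQB1, the 2 chains of HLA-DQ. Each of these genes has 1 probe, and a probe below the detection level does not show that the transcript was absent. With the filter on detection lifted, none of the 4 passed in any of the 6 comparisons, and the adjusted p nearest the threshold was 0.0577, for HLA-DPB1 between Ara-C with HS and untreated cells.

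**Figure D3:**
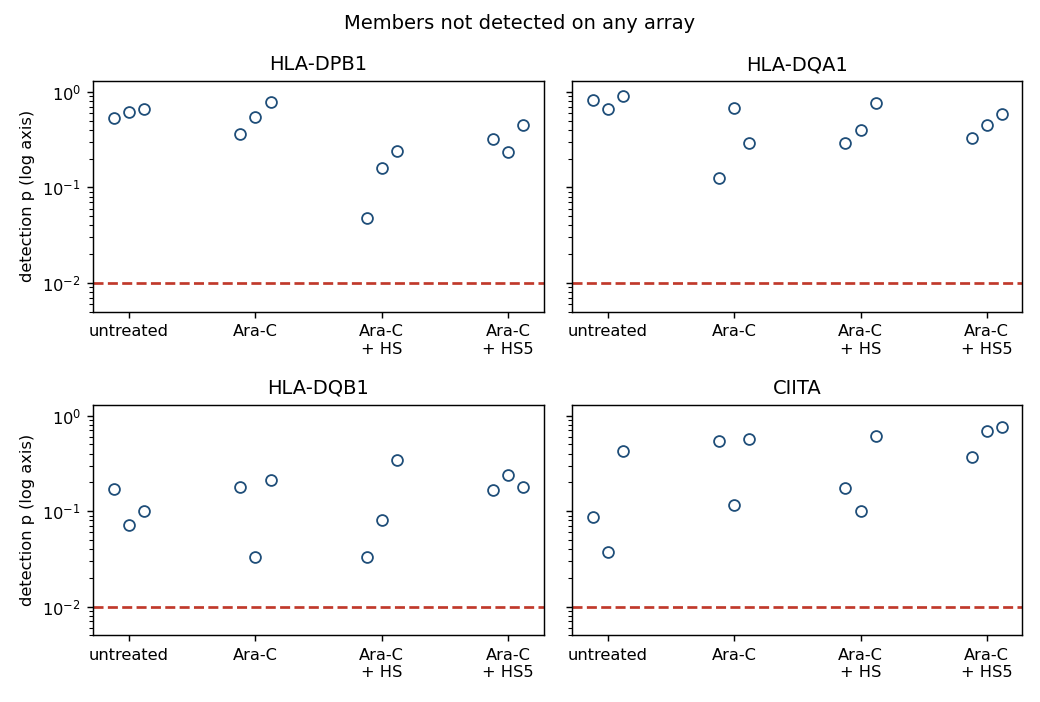
Detection p (vertical axes, log scale) of HLA-DPB1, HLA-DQA1, HLA-DQB1 and CIITA on the 3 arrays of each of the 4 groups (horizontal axes), with the threshold of 0.01 as a dashed line. All points lie above the line, the lowest at 0.0329 for HLA-DQB1.

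Ara-C in the absence of stroma was compared with no treatment. Of the 6 tested members, 3 rose (HLA-DMA, HLA-DRB1 and HLA-DMB), HLA-DRA fell, and HLA-DPA1 and CD74 did not pass. In all, 51.8% of genes tested were called here, 25.5% higher and 26.3% lower, and 4 of 6 is read against these shares. HLA-DRB1 passed the filter only through the groups where it was high, and of the 5 members detected on all arrays 3 were called. The median log2 fold change was 0.02 over the 6 members and -0.03 over all genes. With arrays shifted to a common median in place of quantile normalization, the median log2 fold change of all genes was 0.19. Then 4067 genes were called higher and 1259 lower (2851 and 2942 with quantile normalization). HLA-DRA kept its direction at -0.31 but lost its call (adjusted p = 0.0659, with 0.000113 to 1 over all alternatives). Relative to that median of all genes HLA-DRA changed by -0.50. Against a minimum change of 1.5-fold, HLA-DMA and HLA-DRB1 passed and HLA-DRA and HLA-DMB did not (adjusted p = 1 for both).

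Adding HS stroma to cells under Ara-C was the second comparison. HLA-DRA, HLA-DPA1, CD74 and HLA-DMB rose, HLA-DRB1 fell, and HLA-DMA did not pass. Called were 5 of 6 members, or 4 of the 5 detected on all arrays, where 42.1% of all genes tested were called (21.6% higher and 20.5% lower), and 2.23% were called at least 2-fold higher, as HLA-DRA and HLA-DPA1 were. The median log2 fold change was 0.83 over the members and 0.01 over all genes, and arrays with and without HS did not overlap for 5 of 6 members and for 52.3% of all genes. Against a minimum of 1.5-fold HLA-DRA alone passed, and HLA-DPA1 had an adjusted p of 0.0505. With a median shift the split of calls over all genes went from 2412 higher and 2291 lower to 1583 and 2410, while all 5 member calls kept their direction.

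Adding HS5 stroma was the third comparison, in which 0.903% of genes tested were called, 0.528% higher and 0.376% lower. No member passed at an adjusted p under 0.05 in limma, 2 of 6 had an unadjusted p under 0.05 (HLA-DRA and HLA-DPA1, both lower), and their arrays did not overlap, as was so for 10% of all genes in that direction. The median log2 fold change was -0.17 over the members and -0.00 over all genes. HLA-DRA passed under 4 alternatives, among them the mean of its 2 probes (-0.46, adjusted p = 0.0291) and variances fitted with a trend (adjusted p = 0.0126), and its adjusted p ran up to 0.299 under the others except for a minimum of 1.5-fold (adjusted p = 1).

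The HS and HS5 comparisons share the Ara-C arrays, and the direct comparison of both stroma groups tests their difference. With HS5, HLA-DRA was 3.03-fold lower than with HS (a log2 change of -1.60, SE 0.12, adjusted p = 4.00e-07), HLA-DPA1 2.98-fold lower (-1.58, SE 0.15, adjusted p = 4.38e-06), CD74 2.11-fold lower (-1.07, SE 0.17, adjusted p = 0.000258) and HLA-DMB 1.71-fold lower (-0.77, SE 0.08, adjusted p = 1.02e-05). HLA-DRB1 was at least 1.43-fold higher with HS5 (adjusted p = 0.000496), and HLA-DMA had 0.13 (SE 0.13, 95% interval -0.15 to 0.41, adjusted p = 0.459). Called were 5 of 6 members, or 4 of the 5 detected on all arrays, against 43.2% of all genes (20.9% higher and 22.3% lower), and 2.65% of all genes were called at least 2-fold lower, as were HLA-DRA, HLA-DPA1 and CD74. The median was -0.92 over the members and -0.01 over all genes. Against a minimum of 1.5-fold HLA-DRA and HLA-DPA1 passed.

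Against untreated cells, the alpha chains HLA-DRA and HLA-DPA1 were higher with Ara-C and HS and lower with Ara-C and HS5. With Ara-C and HS, HLA-DRA was 1.57-fold higher (0.65, SE 0.12, adjusted p = 0.000725), HLA-DMB 2.28-fold higher (1.19, SE 0.08, adjusted p = 2.52e-07) and HLA-DMA 4.37-fold higher (2.13, SE 0.13). Of the 6 members 5 were called, all in this direction, where 45.1% of all genes were called, 23.3% higher and 21.8% lower. HLA-DRB1 is among the 5 but was detected in neither group, so no fold is given. With Ara-C and HS5, HLA-DRA was 1.92-fold lower (-0.94, SE 0.12, adjusted p = 2.13e-05) and CD74 1.55-fold lower (-0.63, SE 0.17, adjusted p = 0.007), while HLA-DMA was 4.77-fold higher (2.25, SE 0.13) and HLA-DMB 1.33-fold higher (0.42, SE 0.08). All 6 members were called there, 3 in each direction, against 56.1% of all genes, 27.5% higher and 28.6% lower. HLA-DRB1, among those called higher, was at least 1.28-fold higher. It was not detected in untreated cells and passed the filter only through the groups where it was high, so its call is a description.

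Other chains of the class II region were set beside the members. HLA-DOA, the alpha chain of the DM inhibitor HLA-DO, was detected on all 3 HS arrays, at 6.36 to 6.72, on 1 untreated array and on no array with Ara-C alone or HS5. It rose at least 1.84-fold with HS (adjusted p = 1.77e-05) and was at least 1.73-fold lower with HS5 than with HS (adjusted p = 3.74e-06). It passed the filter on detection only through the HS arrays, so these tests are no support for its direction. HLA-DOB, its partner chain, was detected on all 12 arrays and did not pass in any of the 6 comparisons (0.24 for HS, SE 0.18, adjusted p = 0.318). Among DRB copies, the pseudogene HLA-DRB6 rose 1.54-fold with HS by the probe that stands for it (0.62, SE 0.12, adjusted p = 0.000987), while its other kept probe gave -0.05 (SE 0.15, adjusted p = 0.826). HLA-DRB4, a further DR beta chain, had 0.13 with HS (SE 0.15, adjusted p = 0.522). HLA-DRB3 was called higher with Ara-C (adjusted p = 0.00131) at levels too near the detection limit for a fold. It passed the filter only through groups with Ara-C, so this call too is a description. In this list of 8 genes 5 were tested, and 1 rose with Ara-C, 2 rose with HS and none was called with HS5. Of all genes tested, 25.5% were called higher with Ara-C and 21.6% with HS.

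All 7 listed genes of factors that bind class II promoters were tested, and 2 were called with Ara-C and 1 with HS. Over all genes tested, 51.8% were called with Ara-C and 42.1% with HS. With Ara-C, RFXANK, a subunit of RFX, rose 1.32-fold (0.40, SE 0.11, adjusted p = 0.00596) and NFYC, of NF-Y, fell 1.33-fold (-0.41, SE 0.11, adjusted p = 0.00627). With HS, RFXAP, another RFX subunit, rose 1.42-fold (0.51, SE 0.11, adjusted p = 0.00204), while RFX5, the DNA-binding subunit, had -0.00 (SE 0.08, adjusted p = 0.995). None passed with HS5. Other kept probes for RFXANK gave 0.57 (adjusted p = 0.0028) and 0.05 (adjusted p = 0.79) with Ara-C.

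Of 12 regulators of CIITA 10 were tested. With Ara-C 5 rose and 1 fell, where 51.8% of all genes were called. With HS 3 rose and 1 fell, where 42.1% of all genes were called, and with HS5 none passed. IRF1, a factor induced by interferon gamma, rose 1.53-fold with Ara-C (0.61, SE 0.09) and 1.34-fold with HS (0.42, SE 0.09, adjusted p = 0.00193). SPI1 (PU.1), a myeloid and B-cell factor, rose 1.71-fold with HS (0.78, SE 0.13, adjusted p = 0.000509), by both of its kept probes. IRF8, a factor of myeloid and B cells, was not detected in untreated cells, rose at least 3.3-fold with Ara-C and fell 2.09-fold with HS (-1.06, SE 0.09, adjusted p = 2.39e-06). It passed the filter on detection only through the groups with Ara-C, so its rise with Ara-C is a description. PRDM1, also among the rises with Ara-C, was not detected in untreated cells and passed the same way, so its rise is a description too. IFNGR1, a chain of the interferon gamma receptor, fell 1.24-fold with Ara-C (-0.31, SE 0.09) and rose 1.46-fold with HS (0.54, SE 0.09, adjusted p = 0.00036). The other chain, IFNGR2, went the other way with Ara-C, from a mean of 11.49 ± 0.08 to 11.96 ± 0.05. With HS it read 11.95 ± 0.05 (SD, n = 3 each).

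Of 11 listed genes of endosomal processing 9 were tested, with 5 rises and 1 fall under Ara-C, 3 falls and no rise with HS, and no call with HS5. Over all genes tested, 25.5% were called higher and 26.3% lower with Ara-C, and 21.6% higher and 20.5% lower with HS. CTSL2, which codes for the cathepsin V protease, rose 9.54-fold with Ara-C (3.25, SE 0.15, adjusted p = 3.38e-09) and fell 1.87-fold with HS (-0.90, SE 0.15, adjusted p = 0.000479). SPPL2A, which in mice cleaves the last membrane piece of CD74, rose 2.02-fold with Ara-C (1.01, SE 0.10) and fell 1.33-fold with HS (-0.42, SE 0.10, adjusted p = 0.0048). CTSB rose 1.8-fold with Ara-C (0.85, SE 0.09) and CST3, a secreted cathepsin inhibitor, fell 1.45-fold with HS (-0.54, SE 0.09). CTSS, the protease that trims CD74 in B cells, was not detected in untreated cells and was detected on 2 of 3 Ara-C arrays, at least 1.15-fold higher (adjusted p = 0.032). It passed the filter on detection only through the groups with Ara-C, so its call is a description. LGMN and IFI30, which act in antigen processing, were detected on no array.

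At the cell surface, CD86, a costimulatory ligand for CD28 on T cells, was detected in neither untreated cells nor cells with HS by either of its kept probes. It rose at least 7.1-fold with Ara-C (adjusted p = 2.39e-10), fell at least 7.97-fold with HS (adjusted p = 2.46e-10) and had 0.30 with HS5 (SE 0.11, adjusted p = 0.226). CD86 passed the filter on detection only through the groups where it was high, so these tests are no support for its direction. CD83, which stabilises class II at the surface of dendritic cells, rose 2.33-fold with Ara-C (1.22, SE 0.11) and fell 1.89-fold with HS (-0.92, SE 0.11, adjusted p = 2.59e-05). MIF, the CD74 ligand, did not pass with Ara-C (0.09, SE 0.10, adjusted p = 0.51) or HS (-0.27, SE 0.10, adjusted p = 0.0512). CD80 and CD40 were detected on no array. Of the 6 tested genes of this list 2 rose and 1 fell with Ara-C, 2 fell with HS and none was called with HS5. The shares of all genes called were 51.8% with Ara-C and 42.1% with HS. Over these lists, CD86, CD83, CTSL2, SPPL2A, CST3 and IRF8 were called lower with HS. Called higher were HLA-DOA, HLA-DRB6 (by the probe that stands for it), RFXAP, IRF1, SPI1 and IFNGR1. The members HLA-DRA, HLA-DPA1, CD74 and HLA-DMB rose. The calls of CD86 and HLA-DOA are descriptions only.

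**Figure D4:**
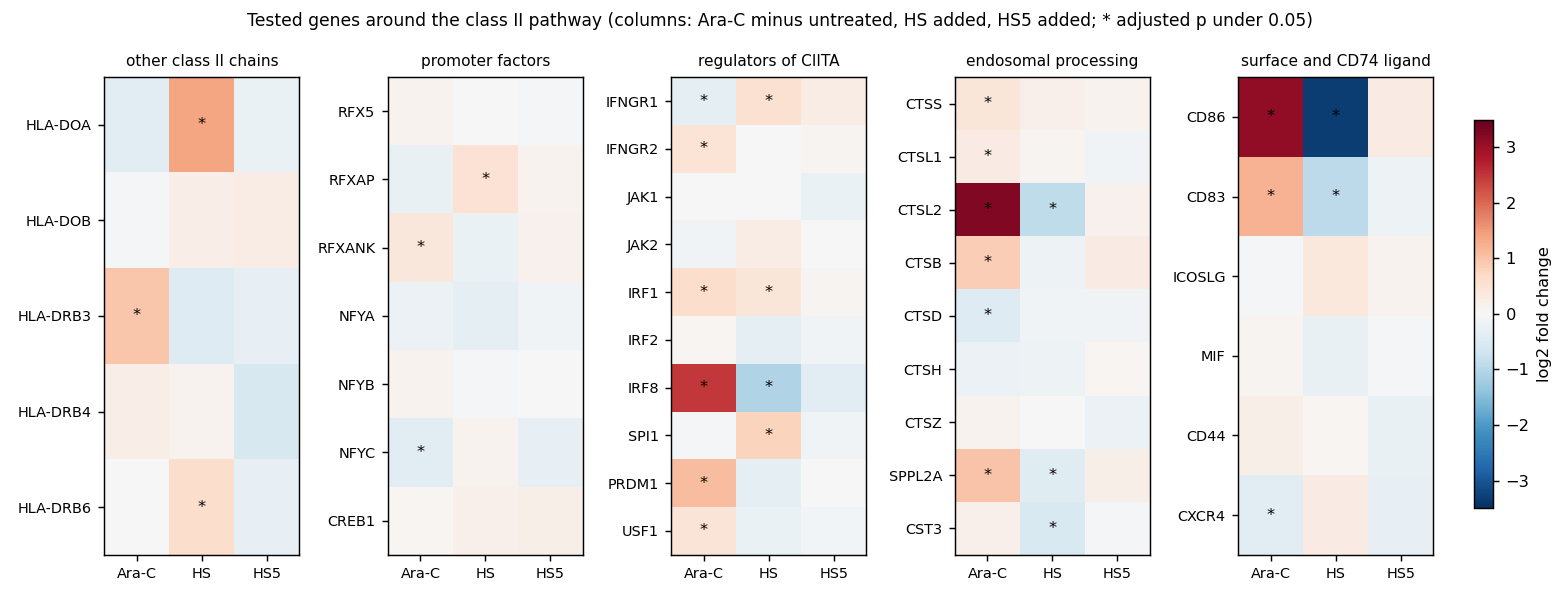
Log2 fold change (colour) of the tested genes of 5 lists around the class II pathway (rows, grouped in panels) for Ara-C against untreated cells, HS added and HS5 added (columns), with a star where the adjusted p was under 0.05. CD86 has 3.11 with Ara-C and -3.32 with HS, fitted values against groups in which it was not detected, CTSL2 has 3.25 with Ara-C, and no gene shown has a star for HS5.

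Markers of other cell types moved in the same comparisons. The summed normalized intensity of the 7 tested monocyte and macrophage markers (of 14 with a probe) ran from 2848 to 3178 in untreated cells, 6123 to 6893 under Ara-C, 4540 to 5513 with HS and 6640 to 6843 with HS5. The other 7, among them CD163, MSR1, C1QA and MRC1, were detected on no array. For dendritic cells 4 of 11 markers were tested. Their sums were 626 to 676 in untreated cells, 645 to 704 under Ara-C, 868 to 957 with HS and 678 to 744 with HS5. With HS there were 1 rise, 1 fall and 2 not passed, and a median log2 change of -0.08. ITGAX rose from a mean of 7.01 ± 0.05 to 8.47 ± 0.15 and LAMP3 fell from 6.04 ± 0.26 to 5.60 ± 0.25, near the detection level. FLT3 went from 6.81 ± 0.11 to 6.51 ± 0.12 and BATF3 from 8.52 ± 0.11 to 8.66 ± 0.18, and neither passed (SD, n = 3 each). CD1C, FCER1A, CLEC10A, CLEC9A, XCR1 and CLEC4C were detected on no array. B-lineage precursor markers, 9 of 15 tested, summed to 6800 to 7224 in untreated cells, 4144 to 4422 under Ara-C, 6776 to 6937 with HS and 3169 to 3654 with HS5. Of the 9, 8 rose with HS, where 21.6% of all genes tested were called higher and 20.5% lower. MME, among the 8, was detected on no array with Ara-C alone or HS5. It passed the filter only through the groups where it was high, so its rise is a description. For granulocyte precursors, 6 of 7 were tested, and 4 rose and none fell with HS. Their sums were 53286 to 59727 in untreated cells, 39030 to 43091 under Ara-C, 45621 to 48363 with HS and 36114 to 39031 with HS5. ELA2, among the rises with HS, was detected on no array of untreated cells or Ara-C alone. It passed the filter only through the groups with stroma, so its rise is a description. The 4 tested T and NK cell markers of 10 all rose with Ara-C, from sums of 2661 to 2791 to sums of 5979 to 6713, and all fell with HS, to 3724 to 4647. With HS5 they summed to 7001 to 7781. Of all genes tested, 25.5% were called higher with Ara-C. CD8A was detected on no untreated array and passed the filter only through the groups with Ara-C. GZMA was detected on no HS array. The rise of CD8A with Ara-C and the fall of GZMA with HS are thus descriptions only. CD3E, CD3G, CD2 and CD5 were detected on no array. Stromal fibroblast markers with a probe numbered 17, and 13 of these, COL1A1, COL1A2, COL3A1, FN1, LUM and DCN among them, were detected on no array. The 4 tested summed to 168 to 195 in untreated cells, 347 to 382 under Ara-C, 284 to 322 with HS and 356 to 416 with HS5. The part of any of these cell types in the class II changes was not tested.

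Genes outside the list with the pattern most like HLA-DRA, by Pearson correlation of log2 intensity over the 12 arrays, were IMPDH2 (r = 0.981), NDRG1 (r = 0.980) and CCT6B (r = 0.978). The closest to CD74 were NPAS1 (r = 0.941), ARHGAP4 (r = 0.939) and XYLT2 (r = 0.939). The 12 points are 4 groups of 3 arrays and share the chip, so these values are descriptions. With HS, NDRG1, a stress response gene, had a log2 fold change of 1.69 and IMPDH2, an enzyme of guanine nucleotide synthesis, 0.66.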

How the data were processed

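Cells labelled Reh were profiled on 12 Illumina HumanHT-12 v3 arrays. Per the file headers, the scanner output gives each probe a mean intensity, not normalized between arrays. A detection p-value for each probe and array was deposited beside it. The deposited value table matches the log2 of quantile-normalized signals, without background correction, to within 0.000167, with a median of 6.09 in every column. The submitters' processing notes name R 2.9.2 and no other tool.

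Intensities were background-corrected, given an offset of 16, quantile-normalized and put on the log2 scale by the neqc function (limma 3.58.1, R 4.3.3). Probes with a detection p under 0.01 on at least 3 arrays were kept (14939, of which 449 had no symbol), and each symbol was represented by its brightest kept probe, giving 11183 genes. Symbols are those of the scanner tables. A total of 17 tested symbols had been turned into dates, so MARCH1 and MARCH8 were not analysed here. Groups come from the sample titles. A limma model with a mean per group was fitted to all 12 arrays (8 residual degrees of freedom), 6 comparisons were tested 2-sided, and a gene was called at a Benjamini-Hochberg adjusted p under 0.05 over all genes. Other probes of a gene come from the same model over all kept probes. Errors of fold changes are standard errors of the model. A group in which the probe was detected on no array has only a bound: the other group's mean is set against the lowest level detected on each array, or the probe's own level where that is higher. The number of arrays limits the precision.

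All 10 members are named whatever their values. Other genes come from lists of the pathway and of cell type markers, of which 2 genes are not reported here and are left out of the counts and sums, and the 3 most correlated genes are given for HLA-DRA and CD74. Members, lists and alternatives were chosen with earlier results of these data known. A longer form of the X box letters was searched before the form given. Summed levels of markers add normalized intensities on the linear scale. Alternatives changed the background correction, normalization, filter, choice of probe, arrays in the fit, variance model, minimum fold, replicate block and each array in turn. The fit was tested on simulated data.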

Additional observations from a re-analysis of the deposited data

Results flagged for a closer look

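The effects of HS and HS5 on cells under Ara-C differed for 4 of the 5 members detected on all arrays, and for HLA-DRB1, by the test of the difference itself (the comparison of both stroma groups in limma, n = 3 arrays each), where 43.2% of all genes tested were called. The HS5 effect minus the HS effect was -1.60 on the log2 scale for HLA-DRA, -1.58 for HLA-DPA1, -1.07 for CD74, -0.77 for HLA-DMB and 0.86 for HLA-DRB1. HLA-DRB1 was not detected with HS and passed the filter only through the groups where it was high, so its fitted value supports no direction. Groups of 3 arrays are too small to look for single arrays that stand apart.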

How the results depend on the processing

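Of 792 combinations of a member, a comparison and an alternative, 749 kept the direction and the side of the threshold, or stayed without a call, 27 gained a call and 16 lost it. No called value changed its sign. Of the 16 losses, 15 came with a minimum of 1.5-fold and 1, HLA-DRA with Ara-C, with a median shift. Leaving out any single array ended no member's call. Members called ran from 4 to 6 for Ara-C, 5 to 5 for HS, 0 to 0 for HS5, 5 to 5 for HS5 against HS, 5 to 6 for Ara-C with HS and 6 to 6 for Ara-C with HS5 against untreated cells when each array was left out. With HS5, where 101 genes were called, leaving out each array gave 28 to 106 (28 without AraC replicate 3, 31 without AraC replicate 2, 50 without AraC replicate 1, 32, 47 and 40 without AraC_HS5 replicates 1, 2 and 3), no background correction 205, normexp with an offset of 50 gave 221, only the 6 arrays compared 62, and variances with a trend 267. Under no background correction, normexp, the mean of kept probes and the trend, 1 member (HLA-DRA) was called with HS5. The cause was not tested. Tested against a minimum of 1.5-fold, which asks for more, the genes called were 1075 for Ara-C, 492 for HS, 1 for HS5, 591 for HS5 against HS, 643 for Ara-C with HS and 1304 for Ara-C with HS5 against untreated cells. Members called were then 2, 1, 0, 2, 2 and 3. The median shift moved the split of called genes to 34 higher and 65 lower for HS5 (59 and 42 with quantile normalization), to 3296 and 1077 for Ara-C with HS (2606 and 2442) and to 3502 and 2123 for Ara-C with HS5 (3074 and 3197). Same-numbered arrays did not deviate together (r from -0.0458 to 0.0253), and with the replicate block 58 genes were called for HS5 while all member calls stayed as they were. HLA-DRB1 and HLA-DOA lie near the detection level, which limits what their size can show.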
